A study of Mus musculus with 20 samples.

Results

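The expression of 7 genes of ketone body metabolism and lipid droplets was followed in mouse cortical neuron cultures kept in low oxygen and deprived of glucose (oxygen-glucose deprivation, OGD), as happens to brain tissue in stroke. They were Bdh1, Bdh2, Oxct1 and Acat1 for ketone bodies and Plin2, Plin3 and Plin4 for droplets. All probes carrying these names in the deposited probe profile were taken, which gave 7 genes with 8 probes, out of 15785 genes and 24620 probes on the array. Bdh1 had 2 probes and each other gene had 1. The genes were chosen by measured values of these same arrays, their differences from controls and between times. Their levels and differences are therefore given as a description, with no test, and counts of calls among them restate the choice.

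The cultures came from the cortex of fetal Swiss albino mice at gestational day 15 or 16 and were on day 7 of culture. Untreated cultures were the controls (5 arrays), and hypoxia with an oxygen pressure under 50 mm Hg was held without a break for 10 min, 5 h, 8 h, 15 h or 24 h (3 arrays each). The labels name no source animals, litters or cultures for the replicates, so the p-values cover the spread among these arrays alone, and that spread may be technical. Slides divided the arrays in 3: slide 1 carried the 10 min group and control 1, slide 2 the 5 h and 8 h groups with controls 4 and 5, and slide 3 the 15 h and 24 h groups with controls 2 and 3.

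Ketone bodies are made from fatty acids, mainly in the liver, and the brain burns them when glucose is short: Bdh1 turns hydroxybutyrate into acetoacetate in mitochondria, Oxct1 loads acetoacetate with coenzyme A, and Acat1 splits the product into acetyl-CoA. Bdh2 encodes a cytosolic relative of Bdh1. Lipid droplets store triglyceride and sterol esters under a coat of perilipins. Plin2 and Plin3 coat droplets in most tissues, Plin4 is best known from fat cells, and in the brain droplets are described mostly in glia.

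Bdh2, Plin2, Plin3 and Plin4 moved together across the arrays, so the 250 bases before the start that the table gives for each are shown side by side. The annotated genes Plin2 and Plin4 begin further upstream, so part of each of these windows, with its CCAAT match, lies within the gene. The sequences come from the RefSeq promoter table (build GRCm38.p6), which held entries for 6 of the 7 genes, with 2 entries for Bdh1. Each is written 5′ to 3′ on the gene's own strand, with the motif matches found on either strand in capitals.
Bdh2 (chr3:135280971-135281220, plus strand): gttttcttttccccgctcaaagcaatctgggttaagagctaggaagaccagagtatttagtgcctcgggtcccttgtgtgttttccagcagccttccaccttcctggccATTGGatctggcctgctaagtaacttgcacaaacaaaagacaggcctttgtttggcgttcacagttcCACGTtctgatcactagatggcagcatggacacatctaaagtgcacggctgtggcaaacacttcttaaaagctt
Plin2 (chr4:86670060-86670309, minus strand): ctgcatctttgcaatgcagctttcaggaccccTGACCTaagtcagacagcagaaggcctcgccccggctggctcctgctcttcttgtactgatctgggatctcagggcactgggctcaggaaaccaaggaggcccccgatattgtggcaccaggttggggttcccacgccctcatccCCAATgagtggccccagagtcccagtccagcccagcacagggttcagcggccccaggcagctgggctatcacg
Plin3 (chr17:56290512-56290761, minus strand): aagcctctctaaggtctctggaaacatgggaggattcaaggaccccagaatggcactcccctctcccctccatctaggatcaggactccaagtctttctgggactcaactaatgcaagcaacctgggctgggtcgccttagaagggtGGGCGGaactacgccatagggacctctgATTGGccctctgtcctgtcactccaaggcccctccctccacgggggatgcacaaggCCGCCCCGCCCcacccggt
Plin4 (chr17:56109783-56110032, minus strand): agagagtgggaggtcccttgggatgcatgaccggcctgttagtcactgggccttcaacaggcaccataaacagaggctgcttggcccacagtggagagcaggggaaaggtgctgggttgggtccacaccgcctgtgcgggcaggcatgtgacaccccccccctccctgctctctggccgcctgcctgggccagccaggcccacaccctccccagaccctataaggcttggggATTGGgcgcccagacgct
Motifs were searched by their letters on both strands. The CCAAT box (CCAAT, or ATTGG on the other strand) was found in the windows of Bdh2, Plin2, Plin3 and Plin4, and in 33.8% of 32851 windows of the same length. The hypoxia response core (ACGTG) was found in the windows of Bdh2 and Oxct1, and in 16.6% of all windows. The nuclear receptor half-site (AGGTCA) had 1 match, in Plin2 (14.0% of all windows), and the SP1 core (GGGCGG) had 3 matches in Plin3, of which 2 overlap by 1 base (32.7% of all windows). The E-box (CACGTG, 6.02%) and the forkhead core (GTAAACA, 3.17%) had no match in any of the windows searched, and both windows of Bdh1 held no match to any of the motifs. A match describes letters only.

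Probes of the profile carry a target identifier that was linked to gene symbols through the platform annotation. For 2 of the 8 probes, Bdh1 probe 2850390 and the Plin4 probe, the identifier itself holds the gene number. The names of the other 6, Bdh2 included, rest on the link alone. Median signal per array lay between 53.1 and 65.4, with 37.0% to 40.8% of probes detected (detection p under 0.01), and a probe's value on an array was the mean over several beads. Of the 8 probes, 5 were detected on all 20 arrays, Plin3 on 17, Plin4 on 10 and the Bdh1 probe 50458 on 0, so 7 probes were tested. Under these names the neuron markers Gad2, Nefl and Snap25 were detected on no array, and 9 of the 12 neuron markers with a probe were tested. Signals are given as deposited, and levels and differences as normalized log2 signal.

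The question for each gene was how its transcript level differed from untreated cultures after each length of OGD, and between successive times. Bdh2 was high at 10 min, 15 h and 24 h and low at 5 h and 8 h, where its levels lay with or below most controls. The Bdh2 probe (1770397) gave signals of 226.0, 599.9, 122.5, 258.8 and 104.9 on control replicates 1 to 5, then 1034.0, 895.2 and 988.9 at 10 min. At 5 h it gave 127.0, 129.4 and 102.5, and at 8 h 201.6, 187.3 and 218.1. At 15 h it gave 1049.7, 958.0 and 970.8, and at 24 h 730.4, 742.5 and 1068.1. Every array of the 10 min, 15 h and 24 h groups lay above every control, and control replicate 2 was far higher than the rest of the controls. On the log2 scale Bdh2 differed from the controls by 2.29 ± 0.41 at 10 min (SE, n = 3 against 5), or 4.87-fold. The difference was -1.15 ± 0.41 at 5 h, 0.04 ± 0.41 at 8 h, 2.72 ± 0.41 at 15 h (6.57-fold) and 2.43 ± 0.41 at 24 h (5.38-fold). In order of group means the levels ran 5 h, control, 8 h, 10 min, 24 h and 15 h, and the only gap between neighbours whose arrays did not overlap was that between 8 h and 10 min.

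Against controls of its own slide, Bdh2 differed by 2.13 ± 0.13 at 10 min (1 control), by 2.28 ± 0.64 at 15 h and by 2.00 ± 0.68 at 24 h (2 controls each). The SE at 10 min holds no spread between controls, since that slide carried 1. At 5 h it was -0.65 ± 0.34 and at 8 h 0.55 ± 0.34 within the second slide. In RNA from a whole culture, fewer cells of a type and less RNA per cell cannot be told apart, for Bdh2 and for every gene below.

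Plin4, a droplet coat protein, was highest at 15 h, then at 24 h and at 10 min. It was measured above background on every array of the 10 min, 15 h and 24 h groups, on none of the 5 h and 8 h arrays, and on 1 of 5 controls, which was replicate 2, so its low groups have no order. The Plin4 probe (1580056) gave signals of 65.4, 113.9, 56.7, 68.4 and 58.3 on control replicates 1 to 5, then 168.1, 135.3 and 176.5 at 10 min. The 5 h arrays read 57.4, 61.9 and 55.9, and the 8 h arrays 66.3, 71.1 and 66.0. The 15 h arrays read 280.4, 237.1 and 202.5, and the 24 h arrays 136.4, 179.9 and 208.7. The arrays of the 3 high groups all lay above the controls. Normalized, those of 15 h (7.73 to 7.98) lay above those of 24 h (6.95 to 7.67), while their deposited signals overlapped. The log2 difference of Plin4 from the controls was 1.66 ± 0.27 at 10 min, 2.68 ± 0.27 at 15 h and 2.15 ± 0.27 at 24 h (SE, n = 3 against 5, of which 1 control measured it). With the 2 controls of the same slide, of which replicate 2 measured it, the difference was 2.25 ± 0.41 at 15 h and 1.71 ± 0.46 at 24 h. The control on the slide of the 10 min arrays did not measure it, and Plin4 was at least 2.83-fold higher at 10 min than there. For such a bound the dim group is put, on each array, at the higher of the probe's own level and the lowest level among detected probes. No fold is given for 5 h or 8 h, where the probe was not well above background in either group on most arrays.

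Plin3, which coats young droplets, was also high at 10 min, 15 h and 24 h. The Plin3 probe (6020671) gave signals of 99.0, 117.8, 67.5, 91.5 and 70.7 on control replicates 1 to 5, then 161.9, 153.3 and 153.4 at 10 min. Signals at 5 h were 84.5, 87.1 and 69.9, and at 8 h 72.7, 92.2 and 89.8. Signals at 15 h were 152.1, 133.2 and 157.6, and at 24 h 123.2, 119.7 and 149.2. All arrays of 10 min, 15 h and 24 h again lay above all controls, with control replicate 2 the nearest. Plin3 differed from the controls by 1.10 ± 0.23 at 10 min (2.14-fold), 1.30 ± 0.23 at 15 h (2.46-fold) and 1.10 ± 0.23 at 24 h (2.14-fold). At 5 h the difference was -0.28 ± 0.23 and at 8 h 0.04 ± 0.23.

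Plin2, the droplet coat protein found in most cells, was the only gene of the 7 whose 5 h arrays all lay below the controls. The Plin2 probe (1740102) gave signals of 157.5, 192.2, 144.1, 223.5 and 140.4 on control replicates 1 to 5, then 308.4, 243.4 and 225.2 at 10 min. At 5 h it gave 104.9, 163.5 and 128.6, and at 8 h 172.9, 163.7 and 143.9. At 15 h it gave 305.5, 263.4 and 215.7, and at 24 h 236.3, 260.3 and 250.2. Normalized levels at 5 h (6.14 to 6.72) lay below the controls (6.77 to 7.44), and those at 10 min (7.55 to 7.80) lay above them. Deposited signals of single arrays overlapped, as 1 array at 15 h was below control replicate 4. Plin2 differed from the controls by 0.61 ± 0.15 at 10 min (1.53-fold), -0.62 ± 0.15 at 5 h, -0.01 ± 0.15 at 8 h, 0.96 ± 0.15 at 15 h (1.95-fold) and 0.91 ± 0.15 at 24 h (1.88-fold). Its group means ran 5 h, 8 h, control, 10 min, 24 h and 15 h, and only 8 h with control and 24 h with 15 h overlapped as neighbours.

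**Figure D1:**
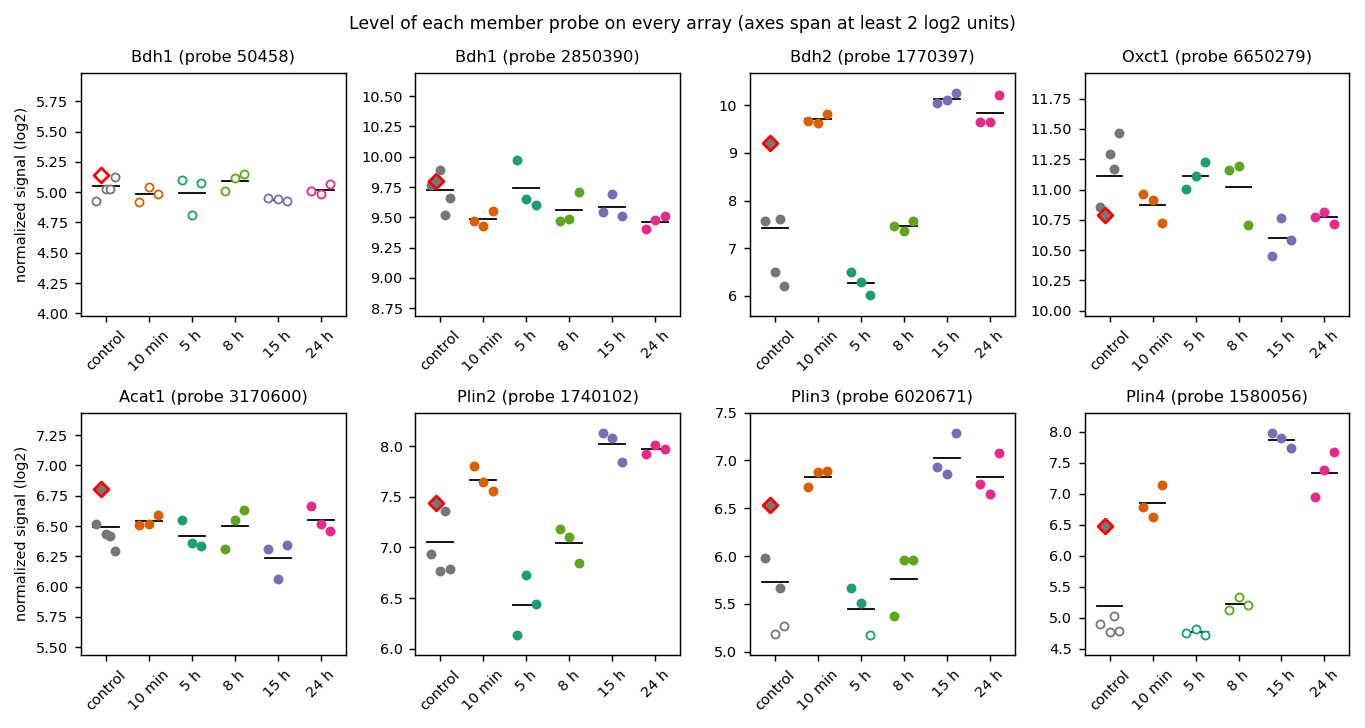
Normalized log2 signal (vertical axes) of the 8 probes on each of the 20 arrays, by group in time order (horizontal axes). Bars are group means, open points are arrays on which the probe was not detected, and the red diamond is control replicate 2. Bdh2, Plin2, Plin3 and Plin4 sit high at 10 min, 15 h and 24 h, and Bdh1, Oxct1 and Acat1 stay within narrower ranges.

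The enzymes that take ketone bodies into the mitochondrial energy supply did not share this course. The Bdh1 probe 2850390 gave signals of 924.4, 898.0, 1042.7, 871.3 and 812.9 on control replicates 1 to 5, then 915.1, 778.8 and 818.3 at 10 min. Readings at 5 h were 1162.1, 994.4 and 847.4, and at 8 h 689.9, 705.6 and 896.3. Readings at 15 h were 759.1, 729.6 and 605.6, and at 24 h 617.6, 662.8 and 661.0. Normalized, its arrays overlapped those of the controls at 10 min, 5 h, 8 h and 15 h, and lay below them at 24 h. In deposited signal the 15 h arrays also lay below every control. The differences of Bdh1 from the controls ran from -0.26 ± 0.10 at 24 h to 0.01 ± 0.10 at 5 h. The second Bdh1 probe (50458) read 56.1 to 69.4 on all 20 arrays and was detected on 0 of them, so it bears no value for the gene.

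Oxct1, the enzyme that commits acetoacetate to use as fuel, was lowest at 15 h. The Oxct1 probe (6650279) gave signals of 1943.4, 1751.1, 2843.4, 2560.0 and 2854.4 on control replicates 1 to 5, then 2526.8, 2182.7 and 1849.4 at 10 min. At 5 h it gave 2310.2, 2629.9 and 2525.4, and at 8 h 2110.4, 2164.5 and 1717.1. At 15 h it gave 1392.0, 1490.9 and 1216.3, and at 24 h 1565.2, 1632.5 and 1472.8. Normalized, only the 15 h arrays (10.46 to 10.77) lay below all controls (10.79 to 11.46), of which control replicate 2 was the lowest. In deposited signal every 15 h and every 24 h array lay below every control. Without control replicate 2, the 24 h arrays lay below the controls in normalized level too (-0.42 ± 0.13). Oxct1 differed from the controls by -0.51 ± 0.14 at 15 h and -0.34 ± 0.14 at 24 h, and by -0.25 to 0.00 at the other times. With controls of the same slide the difference at 10 min was 0.01 ± 0.14.

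Acat1, the mitochondrial thiolase of the last step, overlapped the controls at every time in normalized level. The Acat1 probe (3170600) gave signals of 127.6, 135.2, 119.4, 132.6 and 109.2 on control replicates 1 to 5, then 144.9, 127.7 and 130.8 at 10 min. Later signals were 131.2, 134.5 and 121.2 at 5 h, and 109.9, 122.0 and 126.9 at 8 h. The last groups read 109.1, 90.5 and 97.5 at 15 h, and 118.2, 112.1 and 108.6 at 24 h. Deposited signals at 15 h all lay below the lowest control, by a narrow margin (109.1 against 109.2). Acat1 differed from the controls by -0.26 ± 0.11 at 15 h and by -0.08 to 0.05 at the other times.

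Control replicate 2 stood between the other controls and the high groups on Bdh2, Plin2, Plin3 and Plin4. Its Bdh2 level was 9.21, against 6.21 to 7.61 on the other 4 controls, and the 10 min, 15 h and 24 h arrays lay at 9.63 to 10.25. Its Plin4 level was 6.47, against 4.78 to 5.03 on the other controls. Its Plin3 level was 6.54, against 5.18 to 5.98, and its Plin2 level 7.44, against 6.77 to 7.36. On all 4 probes it was the highest control and lay below every 10 min, 15 h and 24 h array. The spread between beads was small beside this: the Bdh2 signal of 599.9 had a SE of 22.1 over 23 beads. Without this array the Bdh2 difference became 2.73 ± 0.26 at 10 min, 3.16 ± 0.26 at 15 h and 2.88 ± 0.26 at 24 h. Plin4 was detected on 0 of the other 4 controls, against which it was at least 2.88-fold higher at 10 min, 5.85-fold at 15 h and 4.04-fold at 24 h. Control replicate 2 shared its slide with the 15 h and 24 h arrays and not with the 10 min arrays.

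**Figure D2:**
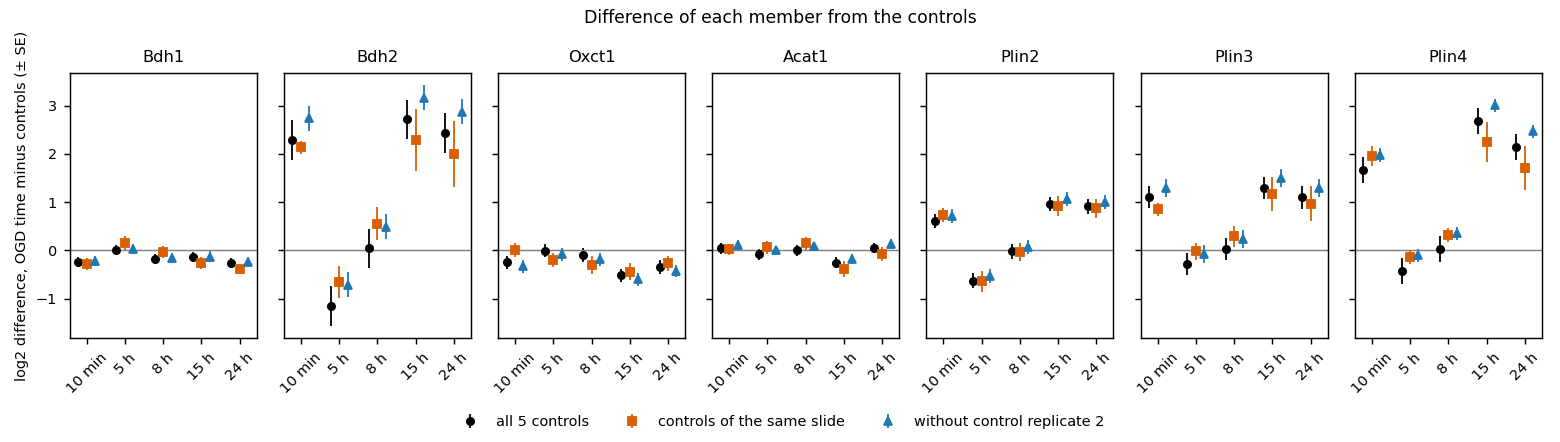
Log2 difference from the controls (vertical axis, with SE) of the 7 tested probes at each OGD time (horizontal axis), with all 5 controls, with controls of the same slide, and without control replicate 2. The differences of Bdh2, Plin2, Plin3 and Plin4 at 10 min, 15 h and 24 h lie above 0 in every setting shown, and those of Bdh2 are larger without control replicate 2 than with all controls. Points of Plin4 without control replicate 2, and its same-slide points at 10 min, 5 h and 8 h, are set against controls that did not detect it. The 5 h and 8 h arrays did not detect it either.

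The following calls (limma, adjusted p under 0.05) describe chosen genes and carry no weight as tests. At 10 min 4 of the 7 member probes were called higher and 0 lower, where 11.0% of the 10447 tested probes were called higher and 9.39% lower (20.4% in all). At 5 h 0 were higher and 1 lower, against 1.68% and 1.15% of all probes (2.83% in all), and the Plin2 call there was lost without control replicate 2, without control replicate 4 and without any 1 of the 5 h arrays. At 8 h 0 were called (0.0% of all probes, limma), and 0 had an unadjusted p under 0.05, against 668 of all probes. At 15 h 4 were higher and 1 lower, against 18.7% and 19.9% of all probes (38.6% in all). At 24 h 4 were higher and 0 lower, against 14.7% and 14.4% (29.1% in all). At 5 h against 10 min 0 were higher and 4 lower, against 17.6% and 18.2% (35.8% in all). With slide as a block, Plin2 and Plin3 were no longer called at 10 min, nor Bdh2 and Plin3 at 5 h against 10 min. At 15 h Oxct1 was then no longer called and Acat1 was called lower (-0.38), and at 24 h Bdh1 was called lower (-0.38). Of all probes, this block left 11.8% called at 10 min, 28.0% at 15 h and 13.8% at 24 h. At 5 h against 10 min it left 4.39% called. With only the controls of the same slide, 0 of the members were called at 24 h (limma), while 5 had an unadjusted p under 0.05. No probe of the pathway lists described below was called there either. The median difference of the 7 probes was 0.61 at 10 min, -0.28 at 5 h, 0.00 at 8 h, 0.96 at 15 h and 0.91 at 24 h, and the median of all probes lay between -0.02 and 0.00. These comparisons share the controls.

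The steps from 5 h to 8 h, from 8 h to 15 h and from 15 h to 24 h use the same arrays as the choice of the genes, and are described likewise. At 8 h against 5 h, the normalized levels of Bdh2 and Plin2 were higher on all 3 arrays than on those of 5 h. Deposited signals of Plin2 overlapped there. None of the 7 probes was called (limma; 1.23% of all probes rose and 1.07% fell, 2.31% in all), and 2 had an unadjusted p under 0.05. The difference was 0.61 ± 0.17 for Plin2 and 1.20 ± 0.46 for Bdh2 (SE, n = 3 against 3). That of Acat1 was 0.08 ± 0.12 and that of Oxct1 -0.10 ± 0.16. Plin4 was detected at neither time.

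At 15 h against 8 h, 4 member probes were called higher and 1 lower, where 16.0% of all probes rose and 16.9% fell (32.9% in all). Bdh2 was 2.67 ± 0.46 higher at 15 h than at 8 h (6.37-fold, SE, n = 3 against 3). Plin4, not well above background at 8 h, was at least 5.46-fold higher at 15 h. The difference was 1.26 ± 0.26 for Plin3 and 0.98 ± 0.17 for Plin2, and for each of the 4 genes every 15 h array lay above every 8 h array. That of Oxct1 was -0.42 ± 0.16, with arrays that overlapped.

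The 8 h and 15 h arrays lay on different slides, each with 2 controls. With slide as a block, the differences at 15 h against 8 h became 1.73 ± 0.70 for Bdh2, 0.87 ± 0.40 for Plin3, 0.95 ± 0.28 for Plin2 and -0.14 ± 0.23 for Oxct1, and of the 7 probes only Plin4 was still called. Of all probes, 6.7% were called there with this block. At 24 h against 15 h, on the same slide, 0 of 7 probes were called (limma; 0.431% of all probes rose and 0.613% fell, 1.04% in all) and 1 had an unadjusted p under 0.05. That probe was Acat1, 0.31 ± 0.12 higher at 24 h. Every 24 h array of Acat1 lay above every 15 h array in normalized level but not in deposited signal. Plin4 was -0.54 ± 0.30 from its 15 h level, with every 24 h array below every 15 h array in normalized level but not in deposited signal. Bdh2 differed by -0.29 ± 0.46 and Plin2 by -0.05 ± 0.17.

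Across the 20 arrays the Bdh2 probe correlated with Plin3 at 0.97, with Plin4 at 0.96 and with Plin2 at 0.94. It correlated with Oxct1 at -0.81, with Bdh1 at -0.50 and with Acat1 at 0.09. Among 9119 other named probes, those most like Bdh2 were Pdlim4 (0.992), Hsd3b7 (0.989), Kcnk2 (0.988), Tcn2 (0.988) and Akr1b10 (0.986), and Plin3 stood at place 60. Those most like Plin4 were Pvalb (0.985), Csrp1 (0.985), Igdcc4 (0.984), Tgm2 (0.984) and Ugt1a7c (0.983). The arrays share their groups and slides, so these values describe a common course over groups.

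Other genes of these pathways were read from 4 lists of 98 genes, of which 83 had a probe and 54, with 70 probes, were tested. These lists were chosen with earlier results of these data known, so their counts and p-values are given as a description. Fatty acid oxidation genes, whose enzymes break acyl chains down in mitochondria, had 22 probes for 16 genes. At 10 min 10 rose and 0 fell (45.5%, against 20.4% of all probes), at 15 h 19 rose and 0 fell (86.4%, against 38.6%), and at 24 h 16 rose and 0 fell (72.7%, against 29.1%). With slide as a block, 2 rose at 10 min, 17 at 15 h and 11 at 24 h, where 11.8%, 28.0% and 13.8% of all probes were called. At 5 h and at 8 h against controls 0 passed (limma), with 5 probes lower at 5 h and 1 higher at 8 h by an unadjusted p under 0.05. The median difference of the list was 0.43 at 10 min, -0.27 at 5 h, -0.01 at 8 h, 0.80 at 15 h and 0.61 at 24 h. At 5 h against 10 min 13 fell and 0 rose (59.1%, against 35.8% of all probes). With slide as a block 0 fell, where 4.39% of all probes were called. At 15 h against 8 h 17 rose and 0 fell (77.3%, against 32.9%). With slide as a block 5 rose, where 6.7% of all probes were called.

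Ech1, an enoyl-CoA isomerase relative of this pathway, had levels of 10.19, 10.69, 9.50, 9.87 and 9.55 on control replicates 1 to 5, then 11.10, 11.02 and 11.25 at 10 min. At 5 h it had 9.79, 9.51 and 9.49, at 8 h 9.88, 10.00 and 10.22, at 15 h 11.54, 11.45 and 11.43, and at 24 h 11.08, 11.21 and 11.44. The 10 min, 15 h and 24 h arrays all lay above every control. Ech1 rose by 1.17 ± 0.19 at 10 min (limma, adjusted p = 0.000635, n = 3 against 5) and by 1.51 ± 0.19 at 15 h (adjusted p = 8.86e-06). Eci1, which shifts double bonds during oxidation, rose by 1.19 ± 0.11 at 15 h against the controls (adjusted p = 1.39e-06) and by 1.20 ± 0.13 against 8 h (adjusted p = 5.6e-06, and 0.0098 with slide as a block). Cpt2, the inner carnitine acyltransferase, rose by 1.31 ± 0.18 at 15 h (adjusted p = 2.02e-05). Acadm, the medium-chain dehydrogenase, rose by 1.11 ± 0.18 there (adjusted p = 0.000103). Acadvl, the very-long-chain dehydrogenase, rose by 0.81 ± 0.17 at 10 min (adjusted p = 0.00328), and with slide as a block by 0.45 (adjusted p = 0.235). At 15 h against 8 h, Ech1 was 1.43 ± 0.21 higher (adjusted p = 7.53e-05, and 0.0577 with slide as a block).

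The PPAR list holds transcription regulators, target genes and fatty acid binding proteins, with 9 tested probes for 8 genes. At 15 h 3 of its probes rose and 2 fell (55.6%, against 38.6% of all probes), and at 24 h 3 rose and 3 fell (66.7%, against 29.1%). The rises were those of Pdk4 and both Angptl4 probes. Fabp3 and Fabp7, which bind fatty acids in the cytosol, fell at both times, and Ppargc1b fell at 24 h, named here after their values were seen. Fabp3 fell by 0.73 at 15 h (SE 0.09, limma, adjusted p = 8.6e-06, and 0.000191 with slide as a block). The adjusted p of Fabp7 at 15 h (0.0324) became 0.393 with slide as a block, and that of Ppargc1b at 24 h (0.039) became 0.324. Pdk4, a kinase that holds back glucose oxidation, had levels of 8.17, 8.89, 8.18, 8.71 and 8.17 on control replicates 1 to 5, then 8.80, 8.81 and 9.09 at 10 min and 8.55, 8.46 and 8.63 at 5 h. At 8 h it had 8.42, 8.67 and 8.80, at 15 h 10.09, 9.79 and 10.02, and at 24 h 9.59, 9.58 and 10.02. Control replicate 2 was again the highest control. Pdk4 rose by 1.54 ± 0.16 at 15 h (limma, adjusted p = 1.89e-06) and by 1.31 ± 0.16 at 24 h (adjusted p = 2.1e-05), and at 15 h against 8 h by 1.34 ± 0.18 (adjusted p = 3.62e-05, and 0.0203 with slide as a block). Angptl4, a secreted inhibitor of lipoprotein lipase, rose by 1.11 ± 0.26 at 10 min (adjusted p = 0.00736, and 0.367 with slide as a block). It rose by 1.64 ± 0.26 at 15 h (adjusted p = 7.95e-05) and by 1.44 ± 0.26 at 24 h (adjusted p = 0.000506), with 0.00106 and 0.0063 when slide was a block.

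**Figure D3:**
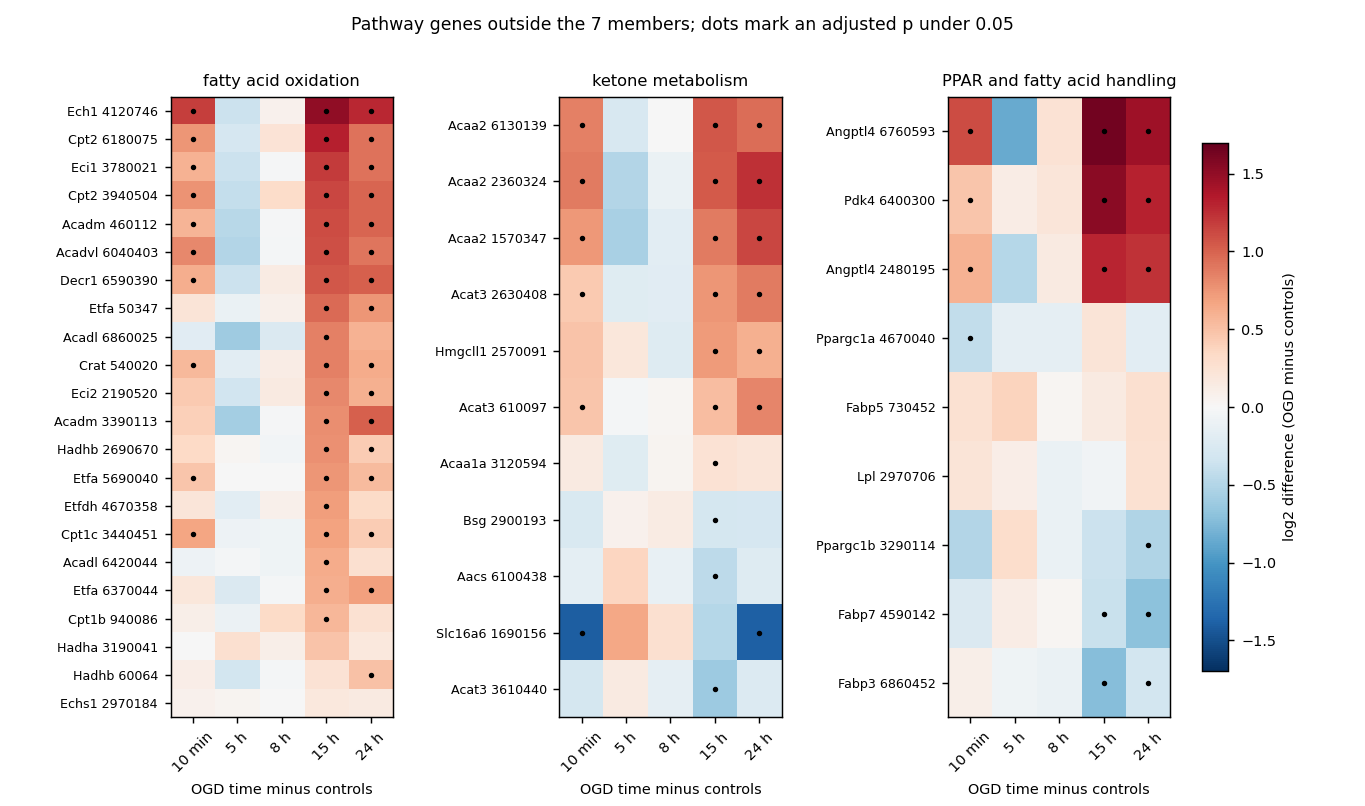
Log2 difference from the controls (colour scale) of tested probes of 3 pathway lists at each OGD time (columns), with dots where the limma adjusted p was under 0.05. Fatty acid oxidation probes are red with dots at 15 h in 19 of 22 rows and hold 0 dots at 5 h and 8 h, and Slc16a6 is blue at 10 min and 24 h.

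Other ketone genes had 11 tested probes for 7 genes. In all, 5 rose and 1 fell at 10 min (54.5%, against 20.4% of all probes), 7 rose and 3 fell at 15 h (90.9%, against 38.6%), and 6 rose and 1 fell at 24 h (63.6%, against 29.1%). With slide as a block, 3 rose and 1 fell at 10 min, and 5 rose and 1 fell at both 15 h and 24 h. Of all probes, 11.8%, 28.0% and 13.8% were then called at these times. The 7 thiolase probes stand for 3 genes. Of these probes, 5 rose and 0 fell at 10 min, 6 rose and 1 fell at 15 h, and 5 rose and 0 fell at 24 h. The Acat3 probe among them was detected on 0 of 5 controls, on 1 array at 10 min, 1 at 15 h and 2 at 24 h. The 1 tested probe for ketone body synthesis rose at 15 h and 24 h. That for ketone body use, Aacs, differed by -0.45 ± 0.13 at 15 h (limma, adjusted p = 0.01, and 0.00151 with slide as a block). Without that block it was not called at 10 min or 24 h. With slide as a block, Aacs was called lower at 24 h (-0.44, limma, adjusted p = 0.0372). Aacs is named here after its values were seen. Acaa2, a mitochondrial thiolase, rose by 0.89 ± 0.19 at 10 min (limma, adjusted p = 0.00419) and by 1.25 ± 0.19 at 24 h (adjusted p = 0.00011). At 15 h against 8 h it rose by 1.16 ± 0.21 (adjusted p = 0.000462, and 0.071 with slide as a block). Slc16a6, a transporter known in zebrafish to export ketone bodies from liver, ran the other way. Its levels were 7.60, 5.61, 7.51, 7.85 and 7.65 on control replicates 1 to 5 and 5.65, 5.85 and 6.02 at 10 min. At 5 h they were 7.82, 7.97 and 7.90, and at 8 h 7.29, 7.68 and 7.59. At 15 h they were 6.89, 6.49 and 6.88, and at 24 h 5.67, 5.96 and 5.94. Control replicate 2 lay below every 10 min array, so the groups overlapped through that array alone. Slc16a6 fell by 1.40 on the log2 scale at 10 min (SE 0.32, adjusted p = 0.00615) and by 1.38 at 24 h (SE 0.32, adjusted p = 0.00336, and 0.171 with slide as a block).

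The list of other lipid droplet and triglyceride genes, 28 probes for 23 genes, had calls in both directions. At 10 min 4 of its probes rose and 4 fell, at 15 h 7 rose and 6 fell, and at 24 h 7 rose and 4 fell, with medians of -0.07, -0.02 and 0.02. These are 28.6%, 46.4% and 39.3% of its probes, near the 20.4%, 38.6% and 29.1% of all probes. When slide was a block, 2 rose and 3 fell at 10 min, 5 rose and 4 fell at 15 h, and 3 rose and 4 fell at 24 h. Of all probes, 11.8%, 28.0% and 13.8% were then called. Cideb, a droplet protein of the CIDE family, was detected on every array at 24 h and on 1 of 5 controls, which was replicate 2. Cideb rose by 1.10 ± 0.15 at 24 h (limma, adjusted p = 5.15e-05, n = 3 against 5). Acsl4, which activates polyunsaturated fatty acids, had probes that differed at 10 min. Probe 3190050 was not well above background on any 10 min array and was called lower there (limma, adjusted p = 0.00163), with no fold given. Probes 510020 and 5570463 differed from the controls there by 0.04 ± 0.16 and 0.02 ± 0.13. At 5 h probe 510020 rose by 0.69 ± 0.16 (adjusted p = 0.0321, and 0.136 with slide as a block), and probe 5570463 was 0.41 ± 0.13 higher and not called. Probe 5570463 was called lower at 15 h (-0.54 ± 0.13, adjusted p = 0.00314, and 0.00532 with slide as a block) and at 24 h (-0.39 ± 0.13, adjusted p = 0.0319, and 0.04). Dgat1, which makes triglyceride, fell by 0.51 at 5 h (SE 0.13, adjusted p = 0.0383, and 0.176 with slide as a block) and rose by 0.55 ± 0.14 at 8 h against 5 h (adjusted p = 0.0468). G0s2, an inhibitor of lipolysis, fell by 0.32 at 5 h (SE 0.08, adjusted p = 0.0376, and 0.265 with slide as a block).

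Astrocyte, microglia and progenitor markers had rises and 0 falls at 10 min, 15 h and 24 h, when Bdh2, Plin2, Plin3 and Plin4 were high. Of all probes, 20.4%, 38.6% and 29.1% were called at these times in either direction. The share of each list called is given in the same order. Sums run over all probes of a list, including those not detected. Astrocyte markers, 11 genes with a probe, had a summed normalized signal of 20377 to 29664 on the controls, with control replicate 2 the highest. The sum was 32052 to 35251 at 10 min, 20236 to 21130 at 5 h, 24430 to 27898 at 8 h, 39361 to 42393 at 15 h and 36167 to 41058 at 24 h. Of 10 tested astrocyte probes, 6 rose and 0 fell at 10 min, 10 rose and 0 fell at 15 h, and 8 rose and 0 fell at 24 h, while S100b and Slc1a2 were detected on no array. Microglia markers (5 tested probes) rose on 2, 4 and 4 probes at 10 min, 15 h and 24 h (40.0%, 80.0% and 80.0%). Their summed signals were 385 to 441 at 10 min and 447 to 470 at 15 h, against 318 to 361 on the controls. The tested microglia probes averaged 4.93 to 5.34 on the log2 scale on the controls, near background, and Aif1 and Itgam were detected on no array. Progenitor markers (11 tested probes) rose on 4, 7 and 6 probes at these times (36.4%, 63.6% and 54.5%). Their sum was 12617 to 13639 at 15 h, against 6107 to 8516 on the controls, control replicate 2 being the highest. Vascular and fibroblast markers (6 tested probes for 3 genes) rose on 4 probes and fell on 2 at each of these times, and 9 of the 12 genes with a probe were detected on no array. Oligodendrocyte markers (6 tested probes) fell on 2, 3 and 2 probes and rose on 0 (33.3%, 50.0% and 33.3%). Neuron markers (13 tested probes) fell on 4, 9 and 4 probes and rose on 0 (30.8%, 69.2% and 30.8%), and at 24 h this was near the share of all probes. Their sum was 6994 to 7761 at 15 h, against 10541 to 11809 on the controls. All 7 adipocyte markers with a probe, Adipoq and Plin1 among them, were detected on no array. The part of the other cell types in the levels of Bdh2, Plin2, Plin3 and Plin4 was not tested.

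**Figure D4:**
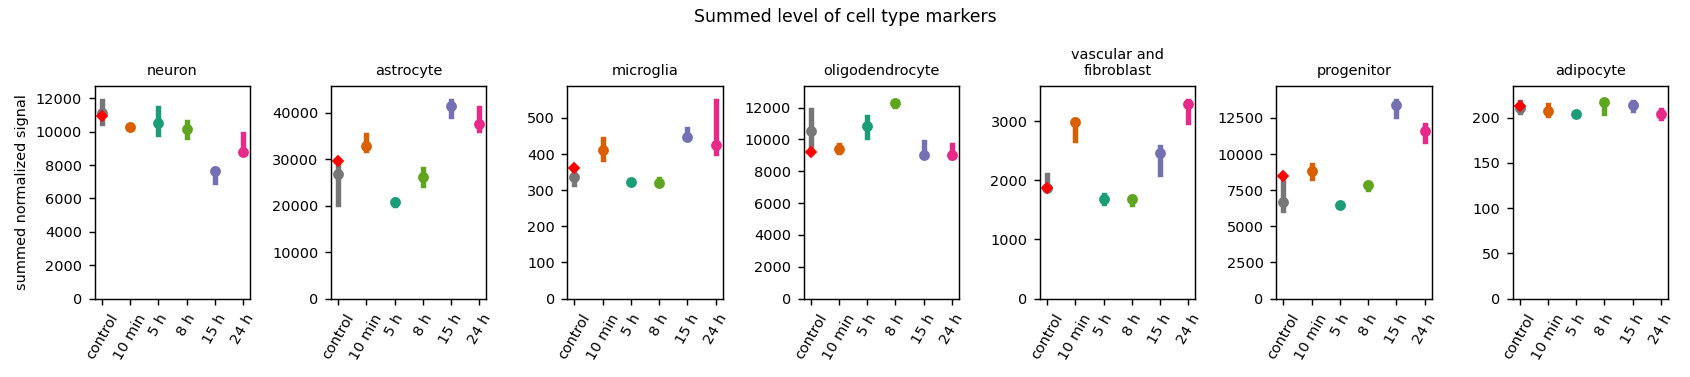
Summed normalized signal (vertical axes, starting at 0) of 7 cell type marker lists by group in time order (horizontal axes). Points are group medians, bars span the lowest to the highest array, and the red diamond is control replicate 2. The astrocyte sum is highest at 15 h and 24 h and lies above all controls at 10 min.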

How the data were processed

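RNA of 20 samples was measured on Illumina MouseRef-8 v1.1 bead arrays. The deposited probe profile holds, per the file headers, the mean bead intensity of each probe, its bead SD, the number of beads (other) and a detection score, read here as 1 minus the detection p; its values carry no normalization by the authors. The deposited normalized table holds ratios made by the authors, which match each array's signal divided by its median and by the median of the 5 controls. Its rows matched 24601 probes by value, only 2 with the same identifier, and its 5 control columns each held another control array than named, so ratios served only as an alternative. In the profile, 80 columns of signals were not used because they match no sample. Image processing settings are not given in the sources used here.

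The neqc function (limma 3.58.1, R 4.3.3, offset 16) corrected the intensities for background and brought the arrays to shared quantiles, after 7 bacterial control probes were left out. Probes detected (p under 0.01) on at least 3 of 20 arrays were kept (10447 probes). A 6-group model with eBayes gave two-sided p-values, adjusted by Benjamini-Hochberg at 0.05 within each comparison, with a median SE of 0.122 against controls and 0.136 between times. The number of arrays limits the precision. Tables and plots used Python 3.11.15, pandas 2.3.3, numpy 2.4.6 and matplotlib 3.10.9. On simulated data for 10 min against control (10447 probes), 94.5% of 200 probes changed by a log2 value of 1 were recovered, with 10 false calls.

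The member genes and lists were chosen with earlier results of these data known, so no p-value is given for a member. All member probes are named, and from the 4 pathway lists the 6 genes with the largest called difference in a comparison could be named, and for Bdh2 and Plin4 the 5 probes of highest correlation. The alternatives tried were a fixed or a random slide block, controls of the same slide, the replicate number as a block, no detection filter, quantile normalization without background correction, 75th percentile scaling, the authors' ratios, only the compared groups, and arrays left out.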

Additional observations from a re-analysis of the deposited data

Results flagged for a closer look

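Control replicate 2 had a Plin4 level of 6.47, against 4.78 to 5.03 on the other 4 controls, a gap of 0.853 of the group's range where 0.71 is the critical value. The other 4 controls did not detect Plin4, and the array was already known to stand apart when the genes were chosen, so the gap is a description. Of the 8 probes examined in this way, Plin4 was the only one past that value, and chance gives about 1 such case in 20 groups.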

How the results depend on the processing

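Numbers are probes called by limma, of 7 member probes and of 70 pathway list probes, and no called difference of a member changed sign under the alternatives run for single members. Uncalled ones did under several of them, and with slide as a fixed block these were Oxct1 at 10 min (0.01, from -0.25) and at 5 h against 10 min (-0.21, from 0.24), Bdh1 at 15 h against 8 h (-0.23, from 0.03), and Acat1 at 5 h (0.06, from -0.08), at 24 h (-0.07, from 0.05) and at 5 h against 10 min (0.04, from -0.12). With slide as a fixed block, member calls became 2 (from 4) at 10 min, 0 (from 1) at 5 h, 2 (from 4) at 5 h against 10 min and 1 (from 5) at 15 h against 8 h, and list calls became 14 (from 28), 0 (from 3), 7 (from 41) and 9 (from 42), with 5 (from 1) at 8 h against 5 h and 1 (from 0) at 24 h against 15 h. Of all probes, the fixed block called 11.8% at 10 min and 0.0% at 5 h. It called 4.39% at 5 h against 10 min, and 6.7% at 15 h against 8 h. At 8 h against 5 h it called 4.19%, and at 24 h against 15 h 2.07%. With slide as a random block, member calls at 5 h became 0, and list calls 1 at 5 h, 26 at 5 h against 10 min, 5 at 8 h against 5 h and 1 at 24 h against 15 h. With controls of the same slide, member calls became 0 at 5 h, 3 (from 5) at 15 h and 0 (from 4) at 24 h, and list calls 0, 31 (from 47) and 0 (from 40). With no detection filter, member calls at 5 h became 0, and list calls 18 at 10 min, 1 at 5 h, 0 at 8 h against 5 h and 1 at 24 h against 15 h. Only the compared groups gave 0 members at 5 h and 1 (from 0) at 8 h against 5 h, and list calls of 9 at 10 min, 0 at 5 h, 2 at 8 h against 5 h and 10 at 24 h against 15 h. The authors' ratios gave 0 members and 5 list calls at 5 h, and 6 list calls at 8 h against 5 h. Quantile normalization gave 3 list calls at 8 h against 5 h and 1 at 24 h against 15 h, and 75th percentile scaling gave 2 at 8 h against 5 h. Without 5 h replicate 1 and 8 h replicate 3 together, member calls at 5 h became 0, and list calls 0 at 8 h against 5 h and 1 at 24 h against 15 h. Same-numbered arrays did not deviate together (correlations -0.585 to 0.454), so numbers do not pair; the replicate block gave 1 member call at 8 h against 5 h, and list calls of 12 at 10 min, 1 at 5 h and 2 at 8 h against 5 h. Leaving out 1 array gave 3 to 4 member calls at 10 min, 0 to 2 at 5 h, 5 to 6 at 15 h, 4 to 5 at 24 h and 4 to 5 at 15 h against 8 h, and list calls of 15 to 36 at 10 min, 0 to 7 at 5 h, 40 to 52 at 15 h, 27 to 45 at 24 h, 33 to 39 at 5 h against 10 min, 0 to 1 at 8 h against 5 h, 37 to 40 at 15 h against 8 h and 0 to 2 at 24 h against 15 h. The 10 min list calls were 17 without 10 min replicate 1 and 15 without 10 min replicate 3. The 5 h list calls were 5 without control 3, 1 without control 4, 7 without control 5 and 0 without 5 h replicate 2 or 3, and the member calls there were 2 without control 5 and 0 without control 2, control 4 or any 5 h array. Causes were not tested. Signals of Plin3 and Plin4 lie near background, and their differences from controls at 10 min were smaller with 75th percentile scaling (Plin3 0.75, from 1.10, and Plin4 1.10, from 1.66) and with the authors' ratios (0.77 and 1.12).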
